A study of Homo sapiens with 6 samples.

Results

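The 34 genes described here carry the symbols of the constitutive 26S proteasome: PSMA1 to PSMA7, PSMB1 to PSMB7, PSMC1 to PSMC6 and PSMD1 to PSMD14. Of these, PSMD5, PSMD9 and PSMD10 encode assembly chaperones and not parts of the finished complex. Counts of subunits below include them unless stated. All 34 genes were taken by symbol from 18278 listed genes and had a row. RNA-seq of poly(A) RNA was made from Toledo, an established human diffuse large B cell lymphoma line. Of 6 samples, 3 had been kept for 6 days with TP-064, an inhibitor of the arginine methyltransferase CARM1, at 5 uM, and 3 for the same time with the solvent DMSO. Both groups come from this 1 line. Separate cultures are not stated for the replicates, so each p-value reflects the spread among these libraries alone, which could be technical. The series title names lymphomas with mutated CREBBP or EP300, and the comparison asks which mRNAs differ in Toledo after CARM1 inhibition.

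The 26S proteasome is the main protease for ubiquitin-tagged proteins in the cytosol and nucleus. Its barrel-shaped 20S core is built from alpha rings, which gate the entrance, and beta rings, which hold the proteolytic sites. A 19S regulatory particle sits on the core: its base unfolds substrates with a ring of ATPases and, with its lid, binds substrates and removes their ubiquitin. Plasma cells, which secrete much protein, depend on it, and proteasome inhibitors are drugs for myeloma and mantle cell lymphoma. Subunit genes are known to rise together when proteasome activity falls, through the transcription factor NFE2L1.

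The libraries held 41354131 to 48360867 reads assigned to genes. The B cell markers CD79A, CD79B, MS4A1, PAX5, CD22 and CD74 were listed, with 280 normalized reads or more in every sample, the lowest being CD22 after TP-064. Several moved with treatment: CD22 (−2.54 on the log2 scale), CD79A (−0.62) and CD79B (−0.32) fell, while MS4A1 rose by 0.90, PAX5 by 0.31 and CD74 by 0.24. Of the myeloid markers with a row, CSF1R had 68.2, 49.5 and 75.2 normalized reads after TP-064 against 12.5, 18.9 and 6.49 in DMSO and rose, CD14 fell (10.8 to 20.9 reads in DMSO, 3.96 to 8.74 after TP-064), and LYZ (12.2 to 25.8 in all samples) did not pass the test. Of the epithelial and stromal markers with a row, COL1A1 fell (273 to 305 reads in DMSO, 135 to 137 after TP-064), and KRT8, at or below 17.8, did not pass. The part of these marker changes in the results that follow was not tested. No row used here was found for 5 T cell, 2 myeloid and 3 epithelial and stromal markers.

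Most subunit mRNAs were lower after TP-064. Of the 34 genes, 27 fell, 1 rose (PSMA1) and 6 did not pass the test, with a median log2 fold change of −0.36 in TP-064 against DMSO. A gene is said to have risen or fallen where limma's adjusted p (Benjamini-Hochberg over 16048 tested genes) was under 0.05; all 34 were tested. This response was broad: over all tested genes 33.3% fell and 31.9% rose, with a median of 0.01. Among 7062 protein-coding genes with a mean of at least 1000 normalized reads, a level reached by 30 of the 34, 47.6% fell, 32.6% rose and the median was −0.07 (quartiles −0.36 and 0.18). Of the subunits 79.4% fell, and their median lies near the lower quartile of these genes. Without the 3 assembly chaperones, 26 of 31 fell (83.9%) and 1 rose, with a median of −0.38. All 3 TP-064 samples lay below all 3 DMSO samples in 27 subunits (35.2% of all tested genes) and above them in 1 (33.9%). With scaling to library size alone, 26 subunits fell and 3 rose (PSMA1, PSMD9 and PSMD13), with a median of −0.24 beside 0.13 for all tested genes. Of the 16073 genes tested under that scaling, 4152 (25.8%) fell and 6655 rose. The falls were moderate: 10 subunits fell by over 0.5 on the log2 scale, 15 by 0.25 to 0.5, and 0 by over 1. In bulk RNA, fewer cells of a type and less RNA per cell cannot be told apart.

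**Figure D1:**
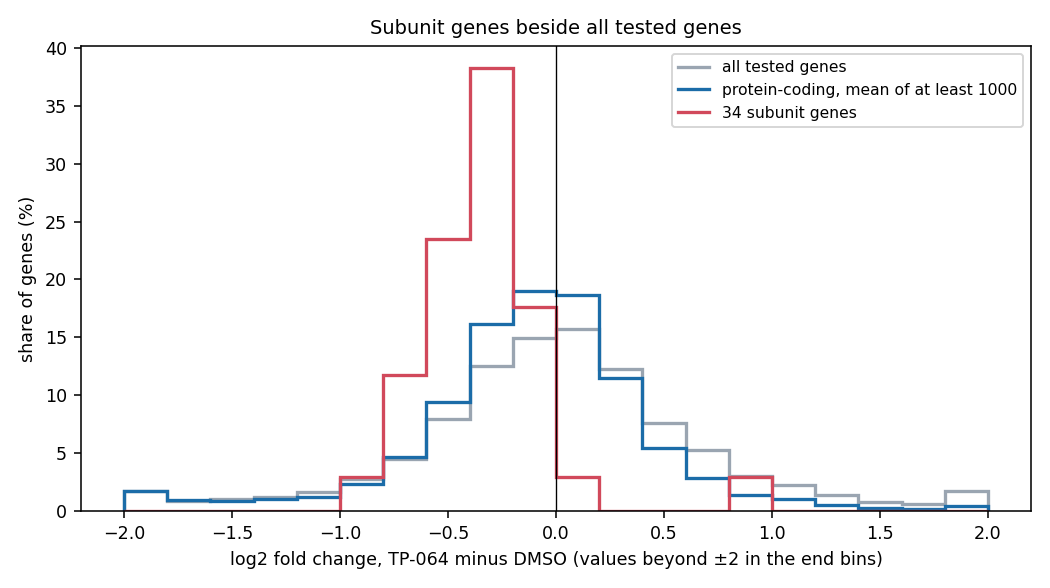
The share of genes (y axis, percent) is plotted by log2 fold change (x axis, TP-064 minus DMSO) for all 16048 tested genes, for 7062 protein-coding genes with a mean of at least 1000 normalized reads, and for the 34 subunit genes. The subunit curve peaks left of the other curves, around its median of −0.36, and PSMA1 stands alone near 0.81.

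As a share of reads, which uses no size factor, the summed subunit mRNA was also lower. Together the 34 genes took 0.406, 0.419 and 0.414% of assigned reads in the TP-064 samples and 0.493, 0.499 and 0.494% in the DMSO samples, with no overlap. In normalized reads, the core (14 genes) held 65930, 71547 and 66660 after TP-064 against 89138, 91165 and 88856. The base and lid held 102620, 108417 and 103588 against 134132, 138322 and 137244. For both assemblies the TP-064 sums all lie under the lowest DMSO sum.

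**Figure D2:**
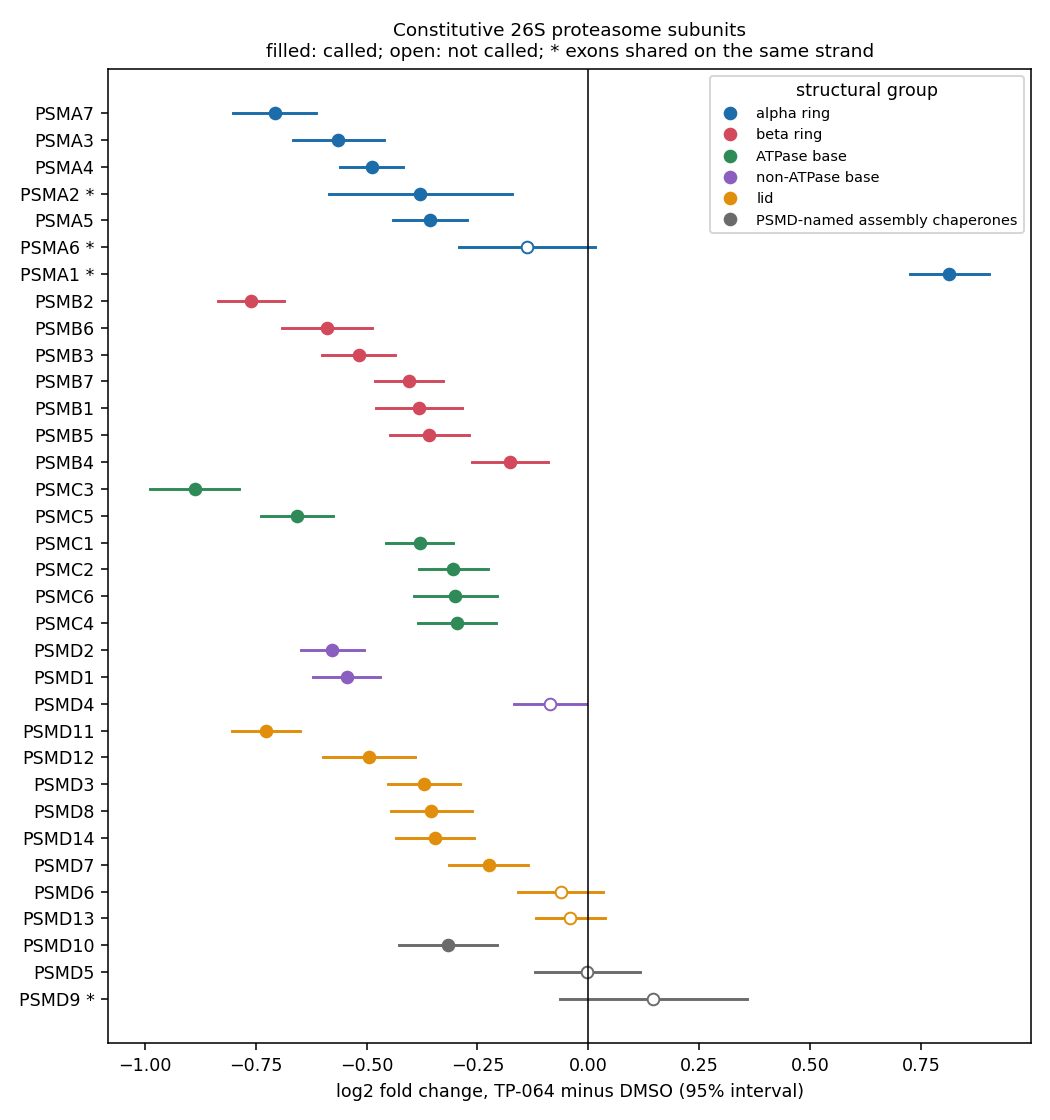
Each point gives the log2 fold change (x axis, TP-064 minus DMSO, with its 95% interval, n = 3 per group) of 1 subunit gene, in the colour of its structural group. Filled points are the 28 genes that passed the test, and an asterisk marks the 4 genes that share exons with another gene on the same strand; all but PSMA1 and PSMD9 lie left of or at 0.

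Promoters are shown because most of these genes moved together. RefSeq (GRCh38.p14) gave promoters for 29 of the 34 genes, and the 250 bases before each start were searched on both strands. TGANNNNGC is a loose pattern of the antioxidant response element type, the element that NFE2L1 and its relatives bind. It was found in 16 of 29 genes (55.2%) and in 40.3% of 27305 genes in the table. The CCAAT box was found in 15 of 29 (51.7%) against 37.0%. The ETS type CCGGAAGT was found in 4 (13.8%) against 4.13%, the nuclear respiratory factor motif in 4 (13.8%) against 6.20%, and the cAMP response element TGACGTCA in 0 against 2.03%. A gene was counted where any of its promoters (35 for the 29 genes) held a match. Some windows lie inside the annotated span of the gene, such as those of PSMA4 and PSMC5 that held TGANNNNGC. Among the 23 genes with a promoter that fell, 13 held TGANNNNGC and 14 CCAAT, beside 16 and 15 of all 29. PSMA1, PSMB2, PSMC1, PSMC6, PSMD1, PSMD2 and PSMD11 held none of the 5.

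The following promoter stretches end before the first annotated exon base, are written 5′ to 3′ on the gene's strand, and have TGANNNNGC and CCAAT matches on either strand in capitals. They were chosen to show both rings, the base and the lid, genes with many matches and 1 with none. PSMA3 lies at chr14:58244593-58244830 (plus strand), PSMA5 at chr1:109426449-109426698 (minus), PSMB3 at chr17:38752491-38752735 (plus), PSMB5 at chr14:23035231-23035470 (minus), PSMC3 at chr11:47426474-47426689 (minus), PSMD1 at chr2:231056617-231056863 (plus) and PSMD3 at chr17:39980557-39980796 (plus).
PSMA3: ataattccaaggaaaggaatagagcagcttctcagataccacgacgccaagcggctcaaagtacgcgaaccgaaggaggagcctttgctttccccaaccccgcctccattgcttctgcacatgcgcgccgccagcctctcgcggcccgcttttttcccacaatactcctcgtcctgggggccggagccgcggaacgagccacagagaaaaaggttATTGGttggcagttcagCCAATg
PSMA5: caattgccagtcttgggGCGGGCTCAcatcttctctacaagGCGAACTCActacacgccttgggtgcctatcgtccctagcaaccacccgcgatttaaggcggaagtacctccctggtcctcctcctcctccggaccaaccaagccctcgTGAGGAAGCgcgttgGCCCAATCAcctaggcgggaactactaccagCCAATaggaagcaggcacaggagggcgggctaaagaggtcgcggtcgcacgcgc
PSMB3: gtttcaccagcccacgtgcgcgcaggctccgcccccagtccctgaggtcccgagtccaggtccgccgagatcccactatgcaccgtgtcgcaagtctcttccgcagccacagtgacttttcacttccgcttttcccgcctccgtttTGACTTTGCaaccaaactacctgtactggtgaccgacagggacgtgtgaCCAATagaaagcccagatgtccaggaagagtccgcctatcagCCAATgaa
PSMB5: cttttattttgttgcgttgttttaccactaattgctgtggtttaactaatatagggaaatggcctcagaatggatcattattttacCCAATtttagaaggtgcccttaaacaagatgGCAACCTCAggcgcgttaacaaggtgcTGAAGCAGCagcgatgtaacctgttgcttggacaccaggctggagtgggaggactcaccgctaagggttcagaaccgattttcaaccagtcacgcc
PSMC3: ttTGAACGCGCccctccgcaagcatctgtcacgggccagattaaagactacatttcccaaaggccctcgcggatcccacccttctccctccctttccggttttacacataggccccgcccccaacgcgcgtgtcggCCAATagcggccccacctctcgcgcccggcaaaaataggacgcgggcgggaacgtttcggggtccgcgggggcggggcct
PSMD1: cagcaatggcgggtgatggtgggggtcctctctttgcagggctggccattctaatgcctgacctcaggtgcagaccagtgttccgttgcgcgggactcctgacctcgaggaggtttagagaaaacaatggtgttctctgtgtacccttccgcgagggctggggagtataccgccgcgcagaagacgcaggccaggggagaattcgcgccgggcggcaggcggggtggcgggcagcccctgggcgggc
PSMD3: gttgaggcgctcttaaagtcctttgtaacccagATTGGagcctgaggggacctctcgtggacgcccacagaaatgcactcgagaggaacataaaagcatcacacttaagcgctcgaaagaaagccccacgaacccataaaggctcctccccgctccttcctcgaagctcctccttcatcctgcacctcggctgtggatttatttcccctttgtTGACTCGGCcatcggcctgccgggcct
PSMA5 carries 4 TGANNNNGC matches, 1 of them overlapping a CCAAT box. The TGANNNNGC match counted for PSMA3 runs past the end of the stretch printed and is not capitalised there. In PSMC3, whose mRNA fell furthest of the 34, the stretch has 1 match of each kind, while that of PSMD1, which also fell by over 0.5, has none. A match is a run of letters and not a measured binding site.

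In the alpha ring, whose N termini close the gate of the core, 5 of 7 genes fell, PSMA1 rose and PSMA6 did not pass the test (median −0.38). PSMA7 fell furthest: it had 9180, 10120 and 9002 normalized reads after TP-064 and 15218, 15899 and 15053 in DMSO. Its groups lie far apart, at 61.3% of the DMSO mean, or −0.71 on the log2 scale (SE 0.04, limma adjusted p = 1.61e-09). PSMA3 (−0.56), PSMA4 (−0.49), PSMA2 (−0.38) and PSMA5 (−0.36) fell with every TP-064 sample below every DMSO sample. PSMA6 had 469, 475 and 451 reads against 556, 469 and 513, which overlap (−0.14, SE 0.07, limma adjusted p = 0.104).

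PSMA1, an alpha subunit like the rest, was the only one of the 34 that rose (PSMD9 and PSMD13 joined it under scaling to library size alone). It had 2362, 2498 and 2451 normalized reads after TP-064 and 1356, 1424 and 1376 in DMSO, so that its groups are as clearly apart as those of PSMA7 but in the opposite direction. Its level was 176% of the DMSO mean, or 0.81 on the log2 scale (SE 0.04, limma adjusted p = 2.09e-10). PSMA1 (ENSG00000129084) spans chr11:14504874-14643635 on the minus strand of hg38. In GENCODE 29, 91.0% of the coding bases of its principal transcript are also exons of AC018523.2, a gene on the same strand that had no row used here. PSMA2 (100%), PSMA6 (89.7%) and PSMD9 (68.3%) share coding bases in the same way with AC010132.3, AL121594.1 and AC069503.2. HTSeq by default assigns a read on exons of several genes to none of them. Setting and annotation release were not given in the sources used here, and the part of this sharing in the PSMA1 result was not tested. Of the 4 genes with such sharing, 1 fell, 1 rose and 2 did not pass; of the other 30, 26 fell, 0 rose and 4 did not pass. PDE3B, on the other strand, rose by 1.30 (SE 0.25, limma adjusted p = 0.000346) from a low mean of 53.9. It begins at chr11:14643723, 88 bases past the upper end of the whole annotated span of PSMA1. The PSMA1 promoter searched above lies far inside that span, at chr11:14520387-14520636. COPB1, 4847 bases away on the same strand as PSMA1, rose by 0.35 (limma adjusted p = 2.62e-07).

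**Figure D3:**
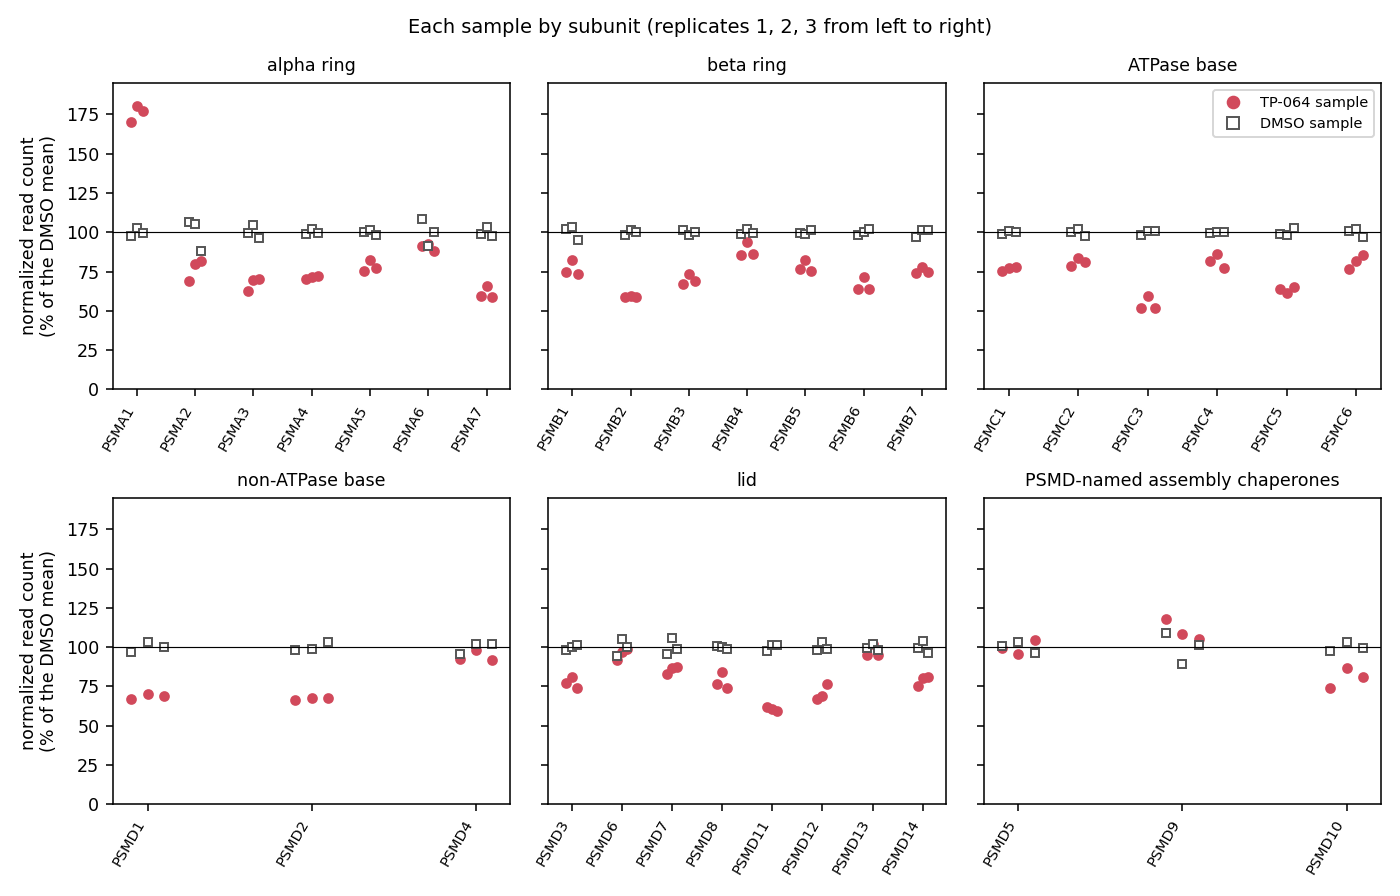
Every sample's normalized read count (y axis, percent of the gene's DMSO mean) is shown for each subunit gene (x axis) by structural group, with circles for the 3 TP-064 samples and squares for the 3 DMSO samples. Apart from PSMA1, at 176% on average, the TP-064 samples sit below the DMSO samples in most genes, and the groups overlap in 6 of 34.

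In the beta ring all 7 genes fell (median −0.40). PSMB2, a structural beta subunit, fell furthest: 2481, 2519 and 2476 normalized reads after TP-064 against 4152, 4276 and 4240. The 3 TP-064 samples lie within a narrow band at 59.0% of the DMSO mean (log2 −0.76, SE 0.04, limma adjusted p = 5.86e-11). PSMB4 fell least, with 18792, 20657 and 18887 reads against 21654, 22384 and 21824. That difference was still without overlap (log2 −0.18, SE 0.04, limma adjusted p = 0.00119), but under scaling to library size alone it did not pass. PSMB3 (−0.52) and PSMB1 (−0.38) lie between.

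The catalytic subunits, which cut the peptide bonds, also fell. PSMB6, the caspase-like site, had 1729, 1930 and 1724 reads against 2641, 2703 and 2744 (log2 −0.59, SE 0.05, limma adjusted p = 3.59e-08). PSMB7, the trypsin-like site, had 4659, 4895 and 4707 against 6114, 6373 and 6379 (−0.40, SE 0.04, limma adjusted p = 1.05e-07). PSMB5, the chymotrypsin-like site that bortezomib binds, had 2319, 2504 and 2288 against 3027, 2996 and 3086 (−0.36, SE 0.04, limma adjusted p = 2.31e-06). Their inducible counterparts PSMB8, PSMB9 and PSMB10 replace them in the immunoproteasome, which B cells also make. Per length of the principal transcript, the ratio of PSMB9 to PSMB6 was 0.421, 0.421 and 0.429 after TP-064 against 0.540, 0.554 and 0.545. That ratio was lower in every TP-064 sample (exact permutation p = 0.1, adjusted over the 3 ratios 0.15; 0.1 is the smallest p this design allows). The ratio of PSMB10 to PSMB7 was 0.158, 0.175 and 0.140 against 0.134, 0.125 and 0.128, higher in every TP-064 sample (exact permutation p = 0.1, adjusted 0.15). PSMB10 shares coding bases with AC040162.1 on its strand. The ratio of PSMB8 to PSMB5 overlapped between the groups (0.674, 0.732 and 0.730 against 0.737, 0.790 and 0.731; exact permutation p = 0.2).

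In the ATPase ring of the base, which unfolds and threads the substrate into the core, all 6 genes fell (median −0.34). PSMC3 fell furthest of all subunits: 5848, 6723 and 5894 normalized reads against 11168, 11456 and 11466. It stood at 54.2% of the DMSO mean (log2 −0.89, SE 0.05, limma adjusted p = 2.99e-10). PSMC4 fell least, from 5282, 5329 and 5311 to 4340, 4561 and 4083 (−0.30, SE 0.04, limma adjusted p = 1.29e-05). PSMC5 (−0.66), PSMC1 (−0.38), PSMC2 (−0.30) and PSMC6 (−0.30) lie between. Of PSMC1's exon bases, 75.8% lie opposite exons of NRDE2, whose own difference of −0.08 did not pass the test (limma adjusted p = 0.121). Of PSMC5's exon bases, 19.5% (874 bases) lie opposite exons of FTSJ3, which had a mean of 9237 reads and itself fell by 0.32 (limma adjusted p = 4.77e-07). GENCODE 29 also lists 30 pseudogenes of these subunits, of which PSMC1P1 alone had a row used here, with a mean of 167 reads; how reads matching several copies were treated is not stated.

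Of the 3 non-ATPase genes of the base, PSMD1 and PSMD2 fell and PSMD4 did not pass the test. PSMD2, which docks shuttle factors, had 11134, 11399 and 11339 reads against 16560, 16613 and 17358 (log2 −0.58, SE 0.03, limma adjusted p = 8.08e-10). PSMD1, the other large scaffold, fell by 0.55 on the log2 scale. PSMD4, which binds ubiquitin chains, had 13878, 14777 and 13849 against 14426, 15339 and 15348. These ranges overlap, and the difference of −0.09 (95% interval −0.17 to −0.00) had a limma adjusted p of 0.0613. Its sign turned under scaling to library size alone (0.037, limma adjusted p = 0.317), and it was −0.060 with TMM scaling (limma adjusted p = 0.146). It was −0.12 and passed without DMSO replicate 1 (limma adjusted p = 0.0334) and without TP-064 replicate 2 (limma adjusted p = 0.00802), and did not pass without any of the other 4 samples.

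In the lid 6 of 8 genes fell (median −0.35). PSMD11, a scaffold of the lid, fell furthest, from 5467, 5682 and 5700 reads to 3470, 3390 and 3318 (log2 −0.73, SE 0.04, limma adjusted p = 1.23e-10). PSMD14, the deubiquitinase that removes chains before degradation, had 4014, 4286 and 4330 against 5330, 5576 and 5146 (−0.35, SE 0.04, limma adjusted p = 2.89e-06). PSMD12 (−0.50), PSMD3 (−0.37), PSMD8 (−0.35) and PSMD7 (−0.22) also fell. PSMD13 was nearly level: 10101, 10863 and 10126 reads against 10613, 10867 and 10473 (log2 −0.04, 95% interval −0.12 to 0.04, limma adjusted p = 0.356), and it was higher under scaling to library size alone (0.083). PSMD6 gave −0.06 (limma adjusted p = 0.243), and 0.061 under scaling to library size alone. A difference between lid members was not tested. Opposite-strand exons overlap PSMD7 (842 bases of AC009120.2, which had 193, 165 and 297 reads after TP-064 against 88.2, 103 and 83.3), PSMD13, PSMD11, PSMD6 and PSMD14; outside the lid they overlap PSMC1, PSMC5 and PSMA2. The kit keeps strand, but the strand setting of the counting was not given in the sources used here.

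The 3 genes of the PSMD series that encode assembly chaperones of the base, and not parts of the finished complex, differed among themselves. PSMD10, also known as gankyrin, fell: 2187, 2557 and 2391 reads against 2876, 3048 and 2946 (log2 −0.32, SE 0.05, limma adjusted p = 6.49e-05). PSMD5 stood at −0.00 (limma adjusted p = 0.974). PSMD9, the least abundant of the 34, had 251, 230 and 224 reads against 233, 190 and 216 (0.15, SE 0.10, limma adjusted p = 0.209). It shares exons with AC069503.2, as above.

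Levels differed far more between subunits than between groups. Compared per length, as normalized reads per kilobase of principal transcript, the 28 structural subunits without same-strand sharing ran in DMSO from 728 (PSMD12) to 22774 (PSMB4), with a median of 3192. After TP-064 they ran from 517 to 20172, with a median of 2411 and PSMD12 and PSMB4 again at the ends. PSMA1, which shares exons on the same strand, had 920 in DMSO and 1619 after TP-064. PSMA7 fell from 15452 to 9472 and PSMC3 from 7359 to 3987, while PSMD4 went from 11139 to 10495. PSMA2, PSMA6 and PSMD9, which also share exons, were at 224, 498 and 76.5 in DMSO, and PSMD5, which does not, was at 241. These 4 are the lowest per length of the 34. The lengths used include shared bases, and the part of the sharing in these levels was not tested.

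**Figure D4:**
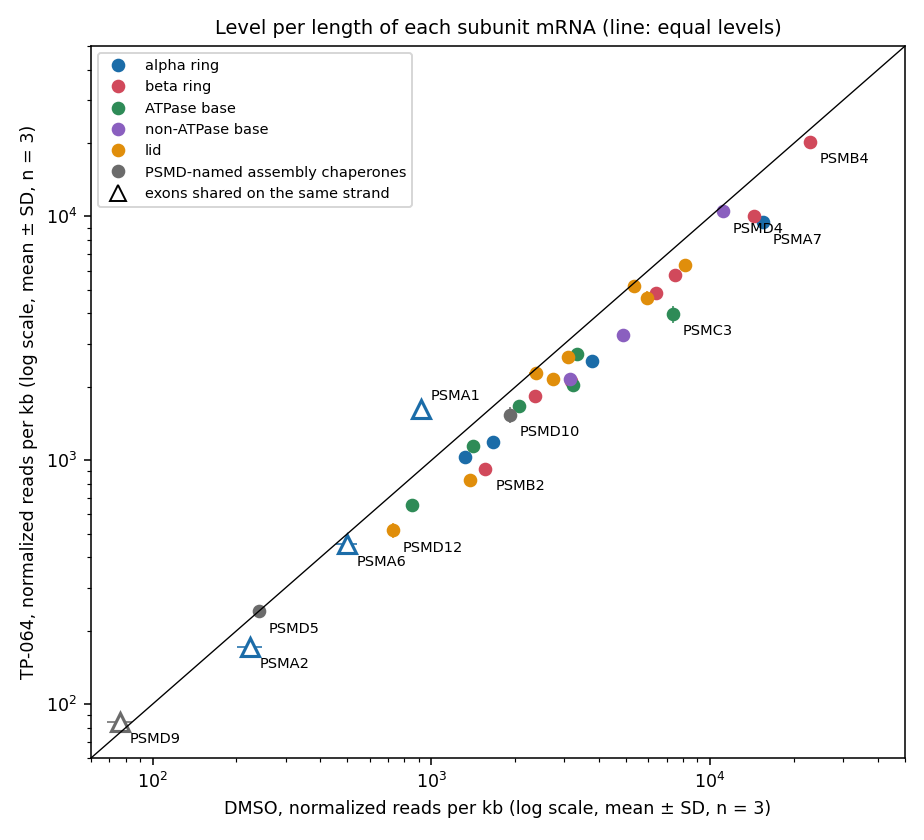
Mean level per length of each subunit mRNA is plotted for DMSO (x axis) and TP-064 (y axis), in normalized reads per kilobase on log scales, with SD over 3 samples. Most points lie below the line of equal levels, PSMA1 above it at 1619 against 920, and the triangles mark genes that share exons on the same strand.

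Within each group, the order of the samples varied between subunits, and a shared order was not tested. TP-064 replicate 2 was the highest TP-064 sample in 21 of 34 genes (61.8%), against 43.0% of all tested genes, and TP-064 replicate 1 the lowest in 20 (58.8%), against 33.3%. DMSO replicate 2 was the highest DMSO sample in 20 (58.8%), against 36.4%. Without TP-064 replicate 2 the median of the 34 was −0.40, and without replicate 1 it was −0.34.

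Other genes of the pathway moved in part with the subunits. Of 48 genes in 7 lists, 29 fell (60.4%), 4 rose and 15 did not pass the test (median −0.24). Over all tested genes 33.3% fell and 31.9% rose. Among protein-coding genes with a mean of at least 1000 normalized reads, a level most of the 48 reached, 47.6% fell and 32.6% rose. The lists are small, and no list was tested against other genes. The remaining 26S subunits, SEM1 and ADRM1, fell both: SEM1 from 3989, 4316 and 3929 to 2226, 2334 and 2407 (log2 −0.81) and ADRM1, a ubiquitin receptor, by 0.41. Of 6 other assembly chaperones 4 fell, among them PSMG1 (−0.81) and PSMG2 (−0.65), which form a pair that builds the alpha ring. Of 5 core activators and inhibitors 3 fell, with PSME2 the furthest of all 48: 2948, 3262 and 3065 against 6678, 6838 and 6692 (−1.12). PSME1, its partner in the 11S activator, fell by 0.52. Of the 4 inducible and tissue-specific core subunits 3 fell, including PSMB9 (−0.96) and PSMB8 (−0.44).

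Among 13 proteasome-bound enzymes and shuttles 10 fell, 1 rose and 2 did not pass. UCHL5, a deubiquitinase, fell by 0.55 on the log2 scale. AKIRIN2, which carries proteasomes into the nucleus, rose: 629, 612 and 651 against 510, 515 and 499 (log2 0.31, limma adjusted p = 0.000245). The NFE2L1 list holds the factor, its processing enzymes and the related factors NFE2L2, NFE2L3, MAFF, MAFG and MAFK. Of its 12 genes 4 fell (33.3%), 3 rose and 5 did not pass. That share equals the 33.3% over all tested genes. It lies under the 47.6% of protein-coding genes with a mean of at least 1000 normalized reads. Neither comparison was tested. UFD1, a VCP cofactor, fell by 0.73 and NFE2L2 by 0.35. MAFG, a partner of these factors on DNA, rose by 0.38 and NGLY1, the glycanase that processes NFE2L1, by 0.28; MAFK was the other gene that rose (0.25). NFE2L1 itself had 8696, 8716 and 8539 against 8887, 9233 and 9401, a log2 difference of −0.08 (limma adjusted p = 0.0399), which under scaling to library size alone was 0.04 and did not pass. Of 6 ubiquitin and E1 genes 3 fell, including the ubiquitin-activating enzymes UBA1 (−0.43) and UBA6 (−0.35). Of the genes named in these lists, UCHL5, PSME1, PSME2, ADRM1, PSMG2, NGLY1, UFD1, NFE2L1, NFE2L2, PSMB8 and PSMB9 overlap exons of another gene on the opposite strand. With library-size scaling 25 of the 48 fell, 12 rose and 11 did not pass. Over all 16073 genes tested under that scaling, 4152 (25.8%) fell and 6655 rose.

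**Figure D5:**
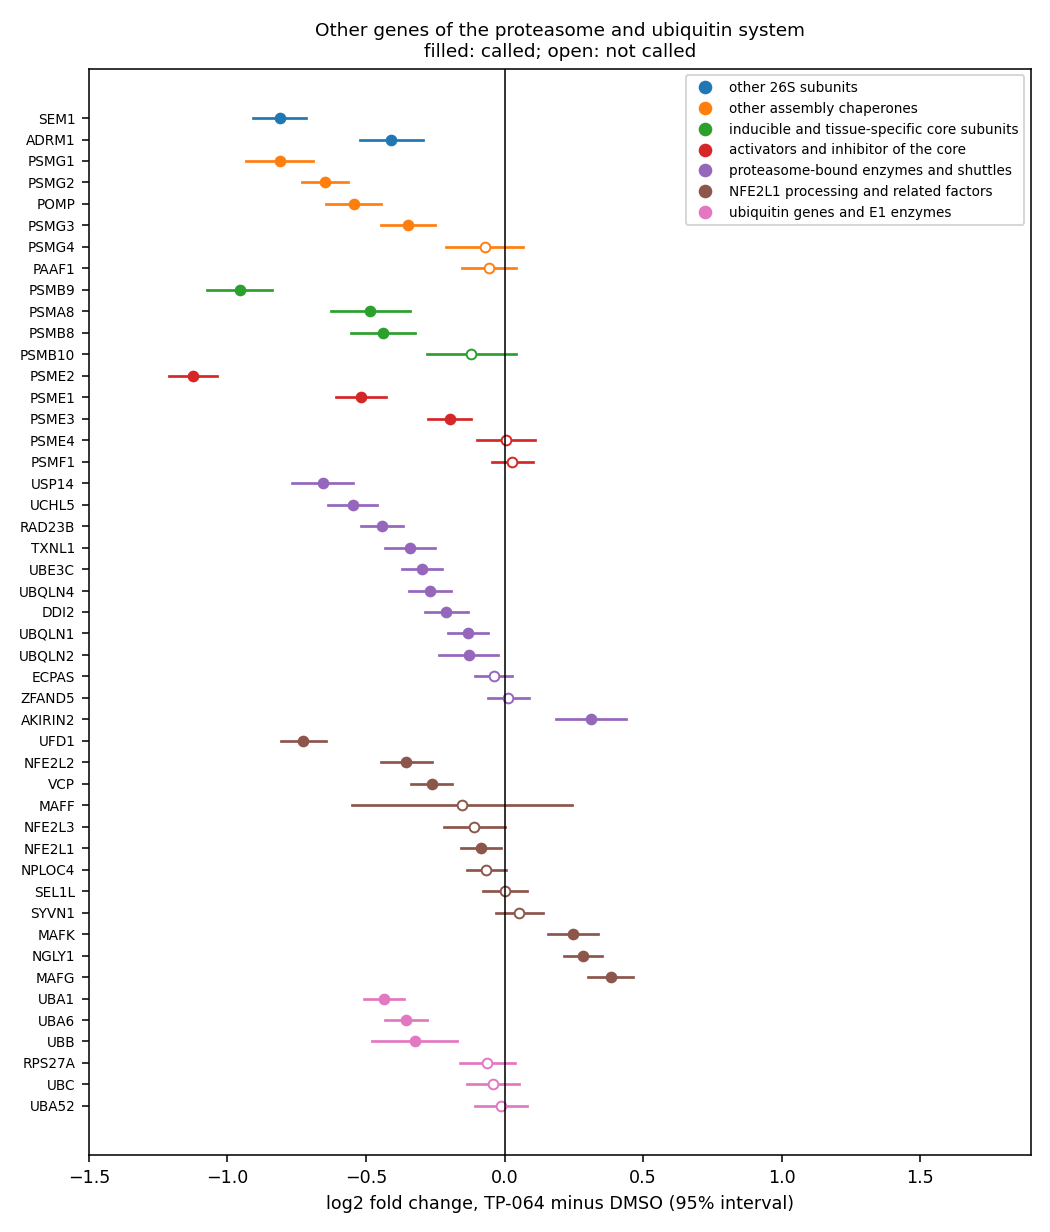
Each point gives the log2 fold change (x axis, TP-064 minus DMSO, with its 95% interval, n = 3 per group) of 1 of the other proteasome and ubiquitin genes (1 of the 48 is not shown), coloured by list and filled where the gene passed the test. PSME2, at −1.12, lies furthest left, and AKIRIN2, MAFG, MAFK and NGLY1 are the filled points right of 0.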

How the data were processed

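Poly(A) RNA from 6 Toledo samples was sequenced after a stranded mRNA library preparation, per the labels' protocols. The submitters' processing notes name the hg38 build, the aligner TopHat2 (2.0.10), the counter HTSeq (0.6.0) and DESeq (1.18.0). The deposited signal is a read count per gene divided by a size factor that the authors' tool computed from medians of ratios (0.925 to 1.14). Multiplied by the factor, all values came out whole within 0.001; for TP-064 replicate 2 and DMSO replicate 2 the factor is close to 1, so this rests on few decimals. Genes with a mean of at least 10 normalized reads (16048; 2230 were left out) were tested with limma 3.58.1 (R 4.3.3) with a mean-variance trend on log2(normalized reads + 1), which understates the change of low genes, unpaired and two-sided, with Benjamini-Hochberg adjustment. The script was tested on simulated data. Genes named with values in every sample are the members with the lowest and highest fold change in each structural group, PSMB5, PSMB6, PSMB7, PSMD4 and PSMD14; in other lists, up to 2 genes with the smallest p in each direction, except that some items are not reported here by name. PSMA6, PSMB10, PSMD6, the other values given singly and the promoters shown were chosen after their values were seen. The members and lists were chosen with earlier results of these data known. Transcript lengths, exons and shared bases are from GENCODE 29. Alternatives were other pseudocounts and filters, library-size and TMM scaling, edgeR 4.0.16 and DESeq2 1.42.0 on recovered reads, a replicate block, a stricter threshold, a 1.2-fold null and each replicate left out.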

Additional observations from a re-analysis of the deposited data

How the results depend on the processing

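Of the 34 genes, 26 to 28 were lower under every alternative that kept all 34 but the 1.2-fold null. Under that null 17 fell (3 in the ATPase base, 3 in the lid and 0 among the chaperones), beside 18.1% of all tested genes. Under library-size scaling the median over all tested genes was 0.13 instead of 0.01; relative to it the subunit median was −0.37 either way, but the plain medians became −0.24 for all 34, −0.26 for the alpha ring, −0.28 for the beta ring, −0.22 for the ATPase base, −0.42 for the non-ATPase base, −0.23 for the lid and 0.12 for the chaperones. Genes called higher were then 3 (PSMA1, PSMD9 at 0.27 and PSMD13 at 0.083), 1 of them in the lid and 1 among the chaperones; PSMD4 (0.037), PSMD6 (0.061) and PSMD5 (0.12) were positive but did not pass. Over all genes 61.6% of calls were then higher, against 48.9%. PSMD5, near 0, was also positive with TMM (0.023), edgeR (0.026) and DESeq2 (0.0016); with each replicate left out it ran from −0.038 to 0.028.

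Without the 4 genes that share exons on the same strand, chosen after seeing the data, 0 of 30 rose and 0 in the alpha ring, whose median became −0.53, and the chaperone median became −0.16. Without genes that overlap opposite-strand exons, 21 of 26 were lower; 3 lid genes remained, all 3 called lower, and the ATPase base median was −0.30. Leaving out each replicate gave 27 to 28 genes lower, 1 higher and a median of −0.40 to −0.34; by group the medians ran from −0.47 to −0.33 (alpha), −0.43 to −0.39 (beta), −0.36 to −0.33 (ATPase base), −0.57 to −0.52 (non-ATPase base), −0.38 to −0.33 (lid) and −0.04 to 0.03 (chaperones). PSMA6 passed without DMSO replicate 2 (−0.20). The replicate block gave 28 lower and 1 higher, PSMD4 passing in addition. Same-numbered samples correlated at −0.0859, 0.0659 and −0.0793, and not every sample correlated best with its own number. Correlations this close to 0, over 3 samples per group, cannot show whether the numbers pair the samples. The cause of these shifts was not tested.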
